A study of Mus musculus with 7 samples.

Results

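The genes described here are a list of 10, chosen by name for cathepsins and the uptake of thyroglobulin. They are the cathepsins Ctsb, Ctsd, Ctsl, Ctsh, Ctsz, Ctss and Ctsk, the legumain gene Lgmn, the cathepsin inhibitor Cst3 and the receptor gene Lrp2. Whether each acts on thyroglobulin was not tested. They were 10 of the 30879 genes in a single-cell table, and their levels were read against Tg, which encodes thyroglobulin. Single-cell transcriptomes were made by SORT-seq, which tags each mRNA molecule of a cell, near its 3′ end, with a unique molecular identifier (UMI) after live cells, negative for DAPI, have been placed in the wells of a plate. All samples came from wild type C57BL/6 mice. There were 2 samples of primary thyroid tissue, dissociated with collagenase and TrypLE, 2 samples of early passage thyroid follicular cell organoids (TFCOs, cultures of thyroid follicular cells, or TFCs) and 3 samples of late passage TFCOs. Organoids were grown in basement membrane extract. Their medium held forskolin (an activator of cAMP signalling), R-spondin conditioned medium, A83-01 (a TGFβ receptor inhibitor), EGF, FGF10, B27, N-acetylcysteine and nicotinamide. No further treatment was given, and mouse age and the number of mice behind a sample were not given in the sources used here.

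Thyroid follicular cells store hormone as part of thyroglobulin in the follicle lumen. To release it, they take thyroglobulin back into endosomes and lysosomes, and cysteine and aspartic proteases cut it until the hormones come free. Cathepsins B, L and K and cathepsin D are the proteases best known for this step, and cathepsins also act outside the cell, in the lumen. Megalin, the product of Lrp2, is a large endocytic receptor that binds thyroglobulin at the apical surface. Legumain matures several cathepsins, and cystatin C, the product of Cst3, is a secreted inhibitor of cysteine cathepsins.

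Of 2590 cells, 2035 had at least 1000 UMIs and were used. Cells were grouped by clustering without the 10 genes, Tg or other lysosomal genes, and clusters were named from marker lists. In tissue this gave 258 endothelial-like cells, 96 TFC-like cells, 58 mural-like cells, 57 cells of immune-like clusters and 22 stromal-like ones, with 73 cells left unnamed. In TFCOs it gave 1442 TFC-like cells of 1457. All 13 TFC markers had a level above 0 in the TFC-like cells of each sample. This is no separate check of their identity, since the same list named the clusters. TFC-like cells had a median of 2374 and 2215 UMIs in tissue, and of 5219 to 12380.5 UMIs in TFCOs. Late sample 2 and early sample 1 stood apart from the other TFCO samples: a cluster of 262 cells held 161 and 95 cells of them, and another of 128 cells held 85 and 40. Levels are mean UMIs per 10000 UMIs of a cell. The 384 well barcodes were the same on every plate, and 305 of them occurred in all 7 samples, so a shared barcode marks a well position and not a shared cell. The series text speaks of 2 biological replicates per description. Which animals or cultures the samples came from was not given in the sources used here, so p-values measure only the spread between these samples.

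The stretches upstream of the start site are shown for Lrp2, Lgmn and Ctss, and not for other members with a window, such as Ctsl and Cst3. They come from RefSeq (GRCm38.p6), whose windows matched 8 of the 10 members, all but Ctsb and Ctsh, and bases inside an annotated exon are left out. Capitals mark a GC box (GGGCGG, or CCGCCC on the other strand), a TATA element (TATAAA or TTTATA) or an E-box (CACGTG), the centre of the element bound by TFEB, a regulator of lysosomal genes. Lgmn has 2 annotated starts, and both windows are given.
Lrp2 (chr2:69586066-69586279, minus strand): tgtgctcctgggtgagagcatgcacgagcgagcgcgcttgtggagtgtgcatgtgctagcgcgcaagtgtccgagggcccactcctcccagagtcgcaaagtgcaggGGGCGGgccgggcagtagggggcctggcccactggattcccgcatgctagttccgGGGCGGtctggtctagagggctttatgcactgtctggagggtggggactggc
Lgmn, outer start (chr12:102439814-102439978, minus strand): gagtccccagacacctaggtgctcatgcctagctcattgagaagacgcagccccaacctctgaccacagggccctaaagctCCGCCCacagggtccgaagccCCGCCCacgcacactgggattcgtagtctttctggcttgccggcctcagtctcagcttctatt
Lgmn, inner start (chr12:102439093-102439342, minus strand): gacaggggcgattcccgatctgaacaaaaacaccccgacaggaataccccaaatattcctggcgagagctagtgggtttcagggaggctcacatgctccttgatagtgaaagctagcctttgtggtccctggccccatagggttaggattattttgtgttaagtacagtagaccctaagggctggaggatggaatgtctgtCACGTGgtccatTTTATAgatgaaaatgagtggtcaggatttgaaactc
Ctss (chr3:95526536-95526785, plus strand): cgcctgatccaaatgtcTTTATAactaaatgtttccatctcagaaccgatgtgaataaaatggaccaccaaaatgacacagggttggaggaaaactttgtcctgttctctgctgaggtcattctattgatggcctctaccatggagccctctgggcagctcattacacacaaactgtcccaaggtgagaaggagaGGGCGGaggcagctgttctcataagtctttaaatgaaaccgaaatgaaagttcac

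In the 250 bases before the start, CACGTG occurred in 6.02% of 32851 RefSeq windows, GGGCGG in 32.7% and TATAAA in 12.4%, both strands counted. Among the members, CACGTG was found in the windows of Ctsd, Ctsl and the inner start of Lgmn, where it lay 49 bases before the start. The longer TCACGTGA, which contains CACGTG, was found in 0.785% of windows and among the members only in that of Ctsd. The Lrp2 window held 2 GC boxes and no E-box, and the Ctss window held 1 GC box and 1 TATA element. These are matches of letters only.

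In GENCODE M21 (GRCm38) the 10 genes lie on 7 chromosomes. Ctsk (chr3:95499256-95509362) and Ctss (chr3:95526786-95556403) are neighbours on the plus strand, 17423 bases apart. Lrp2 spans chr2:69424340-69586065, Cst3 chr2:148871722-148875692 and Ctsz chr2:174427493-174439039, all on the minus strand. Ctsb is at chr14:63122462-63145923 and shares 774 exonic bases at its 3′ end with Fdft1 on the opposite strand, listed at 0.195 in tissue and 0.769 in TFCO TFC-like cells. Ctsl is at chr13:64359337-64370890 and shares 1742 exonic bases with the antisense gene Gm47123, listed at 0 and 0.0158. Whether the counting used strand was not given in the sources used here, so reads of these overlaps cannot be assigned with certainty.

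Ctsd, the gene of the main lysosomal aspartic protease, gave only 8 UMIs in the whole series and is not interpretable here. It lies at chr7:142375911-142388038, and 808 of its exonic bases, including its 3′ end, lie in exons of the annotated gene Gm49369 (chr7:142371096-142382667) on the same strand. Ctsk, a collagen-cutting cathepsin best known from osteoclasts, gave 32 UMIs in the series. It had none in 96 tissue TFC-like cells and 15 in 1442 TFCO cells. Its highest value, 0.792, was in the stromal-like cells of tissue sample 1, with 0 in those of tissue sample 2.

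The first question was which cells of the gland carry these transcripts. The levels are descriptions, since the classes come from clusters of the same cells. Immune-like cells had the highest level of 6 of the 10 genes, and TFC-like cells led for Ctsl. Stromal-like cells led for Lrp2 and Ctsk, on 8 and 10 UMIs. The share of all genes that were highest in immune-like cells was not computed. Tg RNA was also counted outside the follicular cells, and its source there was not tested. Tg, at 1560 and 1156 in the TFC-like cells of the 2 tissue samples, was still at 15.5 to 29.5 in the other named classes.

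Ctsb, an endopeptidase and carboxydipeptidase, was at 12.7 and 13.0 (tissue samples 1 and 2, in this order throughout) in immune-like cells and at 8.37 and 7.56 in TFC-like cells. Stromal-like cells followed at 3.52 and 2.89, endothelial-like cells at 2.57 and 2.28 and mural-like cells at 1.92 and 1.56. No neighbours in this order overlapped between the 2 samples. Ctsl, a related endopeptidase, had another order, with 5.73 and 5.67 in TFC-like, 3.42 and 4.18 in stromal-like, 1.67 and 2.18 in endothelial-like, 0.571 and 1.12 in mural-like and 0.238 and 0.436 in immune-like cells. Again no neighbours overlapped. The stromal-like place in both orders rested on 7 cells of sample 2, with 4 Ctsb and 6 Ctsl UMIs. In the 3 of these cells with at least 3000 UMIs, both genes were at 0. The immune-like cells were thus first for Ctsb and last for Ctsl.

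Ctsh, an aminopeptidase, was at 5.22 and 4.88 in immune-like cells and at 1.94 and 2.16 in TFC-like cells, while the other 3 classes were between 0 and 0.567 and overlapped each other. Ctsz, a carboxypeptidase, was at 4.14 and 4.33 in immune-like cells. Its values were 1.40 and 1.45 in mural-like, 2.55 and 0.228 in stromal-like and 1.22 and 1.07 in TFC-like cells, so the stromal-like range overlapped both others. Lgmn, for an asparagine-specific endopeptidase, was at 3.68 and 3.04 in immune-like cells. It was under 0.5 in every other class, where neighbours in order of mean overlapped. In TFC-like cells of tissue it had no UMI in sample 1 and 7 UMIs in sample 2. No UMI in 49 cells allows a share of up to 6.12% of cells with a UMI at this depth, which does not limit the share of cells that express the gene.

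Ctss, which cuts the invariant chain in antigen-presenting cells, was the most restricted. Its level was 26.1 and 30.7 in immune-like cells and at most 0.802 in any other class, TFC-like cells included. The TFC-like values overlapped the mural-like and endothelial-like ones and lay above both stromal-like values. Ctss also followed the well barcode, with a correlation of 0.173 between TFCO cells of different plates with the same barcode, against at most 0.0377 for the members other than Ctsd and Ctsk, for which none could be computed. Cst3 was highest in immune-like cells (49.2 and 46.4), then in stromal-like (26.3 and 28.0) and mural-like cells (12.3 and 13.6). TFC-like (8.64 and 7.12) and endothelial-like cells (5.79 and 6.14) followed, with no overlap in this order. In cells of at least 3000 UMIs, the stromal-like value of sample 2 was 9.38 on 3 cells, under the mural-like 11.3 and 12.9.

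Lrp2 did not mark the TFC-like cells of tissue. It was at 0.859 and 0.583 in TFC-like cells, 0.890 and 1.71 in stromal-like cells (8 UMIs in all), 0.381 and 0.722 in immune-like, 0.512 and 0.325 in mural-like and 0.546 and 0.277 in endothelial-like cells. The TFC-like values overlapped those of immune-like cells and lay above both mural-like and both endothelial-like values. Immune-like, mural-like and endothelial-like values overlapped each other.

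**Figure D1:**
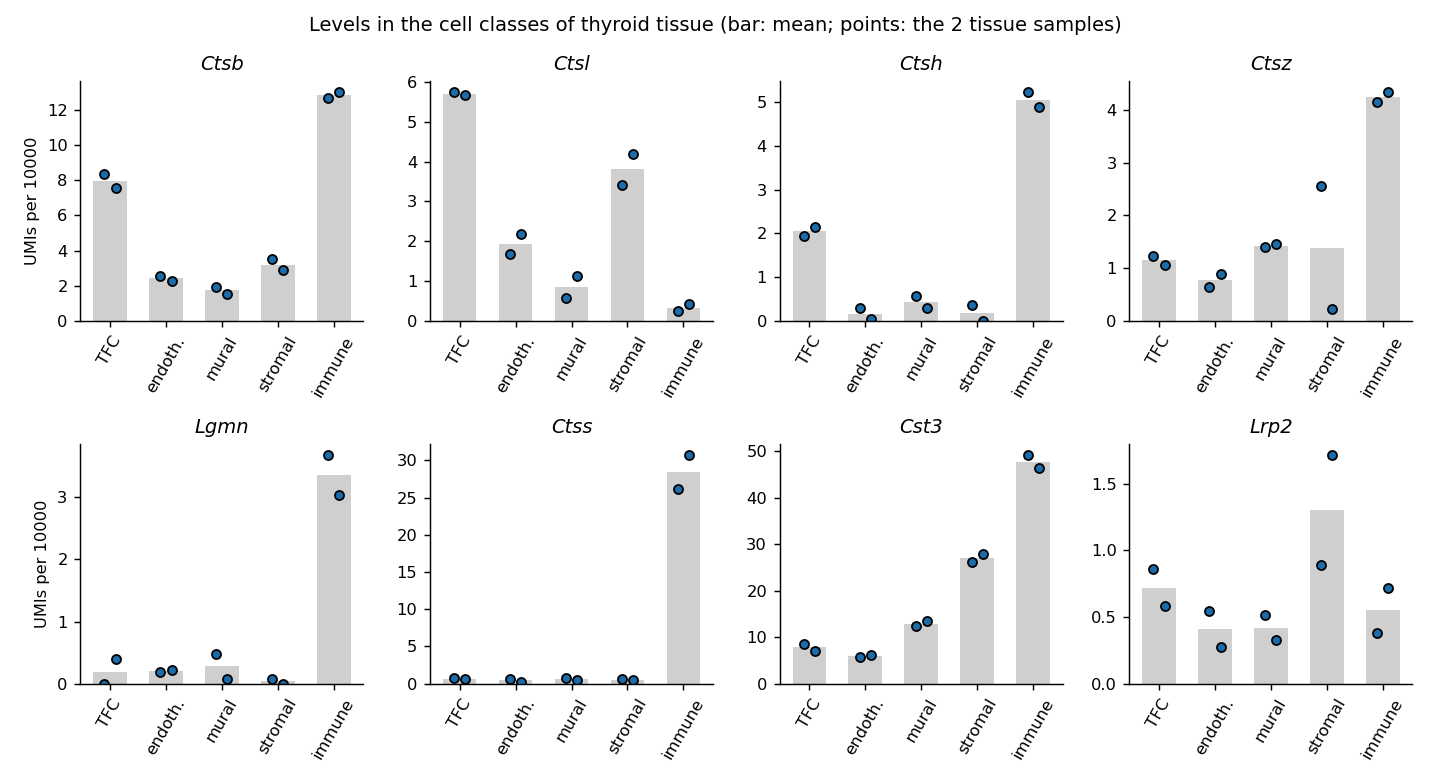
Mean UMIs per 10000 UMIs (vertical axis, from 0) of 8 members in the 5 named cell classes of thyroid tissue. Bars are means and points the 2 tissue samples, and the immune-like bar is the tallest for Ctsb, Ctsh, Ctsz, Lgmn, Ctss and Cst3 but the lowest for Ctsl.

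TFC-like cells were then compared between culture and gland. Ctsb, Ctsl, Lgmn and Lrp2 rose in TFCOs, and none of the 7 tested members fell. Ctss was too low for the test and had lower levels in every TFCO sample than in both tissue samples. Tg, the substrate, fell by 3.66 on the log2 scale (SE 0.56, limma, adjusted p = 0.00162). Across 4338 tested genes, limma with Benjamini-Hochberg adjustment called 21.1% higher and 6.62% lower, and the median log2 difference was 0.21. After centring each sample on its median gene the split was 373 higher and 404 lower in place of 917 and 287, and Ctsb (1.44, adjusted p = 0.0255), Ctsl (1.25, adjusted p = 0.0339) and Lrp2 (1.07, adjusted p = 0.0091) kept their calls while Lgmn did not (0.40, adjusted p = 0.119). Of the 10 members, 7 passed the filter of a mean of 0.5 per 10000 over the group means (Ctsd, Ctss and Ctsk did not), and 4 were called higher, with a median of 0.93. Every TFCO sample lay above both tissue samples for 6 of these 7, as did 40.2% of all tested genes.

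Ctsb was at 8.37 and 7.56 in tissue, 23.3 and 22.4 in early TFCOs and 28.1, 25.9 and 39.3 in late TFCOs. The 2 groups did not overlap, and the log2 difference was 1.62 (SE 0.39, adjusted p = 0.0126). With each cell thinned to 1000 UMIs, which sets all cells to the same depth, the levels were 8.78 and 7.45 in tissue and 21.6 to 39.0 in TFCOs. Ctsl was at 5.73 and 5.67 in tissue, 13.6 and 14.6 in early and 22.6, 16.0 and 24.2 in late TFCOs. Its log2 difference was 1.43 (SE 0.37, adjusted p = 0.0162). With Tg left out of the denominator of each cell, the Ctsb difference was 1.36 (adjusted p = 0.0404) and that of Ctsl 1.15 (adjusted p = 0.0599), so the call for Ctsl was lost. In cells of at least 3000 UMIs neither passed (Ctsb 1.63, adjusted p = 0.0713, and Ctsl 1.18, adjusted p = 0.144), nor with UMIs summed over cells (1.73, adjusted p = 0.0936, and 1.51, adjusted p = 0.107).

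Lrp2 was at 0.859 and 0.583 in tissue, 2.91 and 3.14 in early and 3.83, 2.76 and 2.84 in late TFCOs. The mean level in TFCOs was 4.3 times that in tissue. On the fitted log2(level + 1) scale, which understates changes of low genes, the difference was 1.25 (SE 0.23, adjusted p = 0.00398), and with a pseudocount of 0.1 it was 1.97. After thinning to 1000 UMIs, 8.16% and 4.26% of tissue TFC-like cells had an Lrp2 UMI, against 22.2% to 27.8% in the TFCO samples. Without thinning the shares were 16.3% and 19.2% of 49 and 47 tissue cells and 64.6% to 83.6% in TFCOs. Lgmn was at 0 and 0.391 in tissue, 0.545 and 0.771 in early and 0.963, 0.672 and 1.02 in late TFCOs, with a log2 difference of 0.58 (SE 0.18, adjusted p = 0.0319). The size depends on the pseudocount, since with 0.1 the difference was 1.95 (adjusted p = 0.0243). That call rested on few UMIs and was lost after thinning (0.52, adjusted p = 0.122), without tissue sample 1 (0.34, adjusted p = 0.0846) and without early sample 2 (0.53, adjusted p = 0.0534).

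Cst3 was at 8.64 and 7.12 in tissue, 9.50 and 16.6 in early and 23.0, 11.8 and 28.7 in late TFCOs. The groups did not overlap, but the TFCO samples spread widely and the difference of 0.93 (SE 0.51) did not pass the test (adjusted p = 0.189). Without late sample 2 it was 1.11 (adjusted p = 0.0414). The 2 lowest TFCO samples for Cst3, early sample 1 and late sample 2, were also the 2 lowest for Tg, at 68.7 and 76.6 against 133 to 155 in the other 3. Ctsh was at 1.94 and 2.16 in tissue and 2.38 to 4.82 in TFCOs, a difference of 0.52 (SE 0.26, adjusted p = 0.153). Ctsz was at 1.22 and 1.07 in tissue and 1.05 to 1.93 in TFCOs, with overlap and a difference of 0.087 (SE 0.21, adjusted p = 0.776) whose sign turned when samples were centred on the median gene. Ctss, under the filter, was at 0.802 and 0.567 in tissue and 0.0709 to 0.132 in TFCOs, where no immune-like cells were found.

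**Figure D2:**
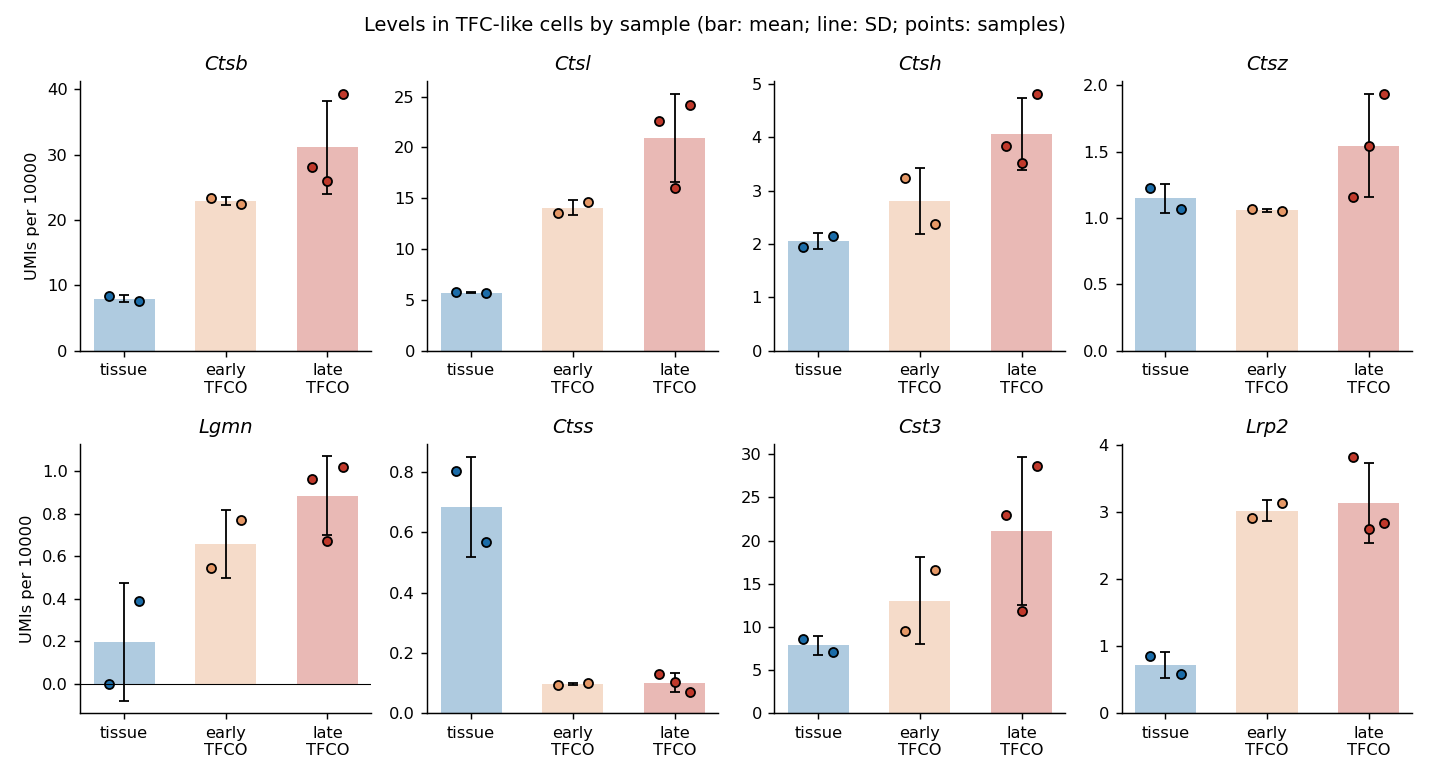
Mean UMIs per 10000 UMIs (vertical axis) of 8 members in the TFC-like cells of each sample. Bars are group means, lines the SD and points the 2 tissue, 2 early and 3 late samples, and every TFCO point lies above both tissue points for Ctsb, Ctsl, Ctsh, Lgmn, Cst3 and Lrp2.

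The tissue TFC-like cells also carried more RNA of most other types listed. The summed level of 10 endothelial markers was 9.62 and 11.4 in them against 1.36 to 2.47 in TFCO samples (135 in endothelial-like cells), with 9 of 10 detected in both tissue samples and Egfl7 at 0. The 10 immune markers summed to 1.195 and 1.48 against 0.138 to 0.660 (69.5 in immune-like cells), with Cd3e and Cd79a at 0 in both tissue samples. Mural markers summed to 4.46 and 5.97 against 0.744 to 2.15, stromal markers to 2.43 and 1.81 against 0.239 to 0.684, C cell markers to 3.23 and 2.56 against 0.0495 to 0.156 and erythroid markers to 4.51 and 0.937 against 0 to 0.031. Glia markers summed to 0.641 and 1.52 against 0.126 to 0.213, and parathyroid markers to 1.39 and 1.43 against 0.535 to 1.18. Muscle markers (0.0652 and 0 against 0.0628 to 0.206) and adipocyte markers (0.123 and 0.157 against 0.056 to 0.196) overlapped between tissue and TFCO samples. The leading genes of the tissue follicular cluster, before cells were set aside, included Calca of C cells and Pth of parathyroid cells. Mitochondrial transcripts were at 1031 and 830 in tissue and 452 to 730 in TFCOs. The part of these values in the differences was not tested as a whole. Where only the 41 and 29 tissue TFC-like cells with more Tg than any cell of the other named classes were used, a choice made after seeing the data, the difference was 1.39 for Ctsb (adjusted p = 0.0422), 1.16 for Ctsl (adjusted p = 0.064), 0.62 for Lgmn (adjusted p = 0.0368) and 1.37 for Lrp2 (adjusted p = 0.00786). In tissue cells with no UMI of 5 immune markers, Lgmn was at 0.54 (adjusted p = 0.068).

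Other lysosomal and uptake genes did not move as a block. Of 124 genes in 8 further lists, 67 were tested, and 11 were higher and 5 lower in TFCOs, beside 21.1% and 6.62% of all genes, with a median of 0.19. None of 5 tested other lysosomal peptidases was called. Of 17 acid hydrolases and activators, Galc, the galactosylceramidase gene, was higher (0.443 and 0.729 in tissue, 2.31 to 4.08 in TFCOs, adjusted p = 0.00311). The other 3 called genes of this list were lower. Among them, Galns, for a sulfatase, was lower by a log2 difference of −0.94 (adjusted p = 0.0229), and Psap, for the saposin precursor, by −1.12 (adjusted p = 0.0495).

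Of 8 lysosomal membrane genes, Lamp2 was higher (0.86, adjusted p = 0.036) and Cd63 lower (−1.48, adjusted p = 0.00386). Of 17 tested subunits of the vacuolar proton pump, which acidifies lysosomes, Atp6v0a2 (1.18, adjusted p = 0.0114), Atp6v1a (0.81, adjusted p = 0.0248) and Atp6v1h (0.61, adjusted p = 0.0237) were higher and none lower. Of 7 sorting genes, 3 were higher, namely the sortilin family receptor gene Sorl1 (0.91, adjusted p = 0.0417), the mannose 6-phosphate receptor gene M6pr (0.81, adjusted p = 0.0126) and the retromer gene Vps35 (0.63, adjusted p = 0.0317). Of 12 uptake and endosome genes, the clathrin heavy chain gene Cltc (0.98, adjusted p = 0.0162) and Rab11a (0.48, adjusted p = 0.03) were higher. Lrp1, a receptor of the same family as Lrp2, was lower, at 1.18 and 0.967 in tissue and 0.376 to 0.761 in TFCOs (−0.44, adjusted p = 0.0393). The 1 tested cystatin besides Cst3, Cstb, which inhibits cathepsins inside the cell, was higher (0.78, adjusted p = 0.0154). None of the 4 transcription factors of lysosomal genes passed the filter.

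Late passage TFCOs were compared with early ones, which asks whether long culture changed these levels. No member passed the test, and neither did any gene of the 8 lists. Among 4338 genes limma called 1 higher (0.0231%) and 0 lower (0%), while 879 had an unadjusted p under 0.05. All 7 tested members had a positive difference, with a median of 0.41 against 0.0065 over all genes, but each adjusted p was at least 0.234. Every late sample lay above both early samples for Ctsb, Ctsl, Ctsh and Ctsz, which is 4 of 7 members against 17.6% of all tested genes. The difference was 0.52 for Ctsl (SE 0.26, adjusted p = 0.281), 0.41 for Ctsh (SE 0.18, adjusted p = 0.234), 0.41 for Ctsb (SE 0.28, adjusted p = 0.412) and 0.29 for Ctsz (SE 0.15, adjusted p = 0.271). For Lrp2 it was 0.032 (SE 0.16, adjusted p = 0.927). With the likeness of late sample 2 to early sample 1 entered as a further term, 347 genes passed and no member did.

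The last comparison set the members against Tg within the organoids. TFCO TFC-like cells of each sample were ranked by Tg and divided into 3 equal parts (terciles), and the highest was compared with the lowest, in UMIs per 10000 UMIs that are not Tg, with the sample as a term. Ctsl, Ctsb and Cst3 rose with Tg, and none of the 7 tested members fell. Of 4692 genes, 1.51% were called higher and 0.959% lower, and 3 of 7 tested members were higher, with a median of 0.21 against −0.014 over all genes. The same 3 members were higher in all 5 samples, as were 6.67% of all genes.

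Ctsl was at 14.6, 12.8 and 19.7 in the lowest tercile of the late samples and at 31.2, 19.4 and 29.2 in the highest. In the early samples it was at 11.1 and 10.9 in the lowest and 16.4 and 19.6 in the highest. The log2 difference was 0.69 (SE 0.09, adjusted p = 0.000169), rank 6 of 4692 genes counted from the most positive difference. Ctsb was at 21.6, 22.2, 34.0, 19.3 and 18.6 in the lowest tercile of late samples 1 to 3 and early samples 1 and 2, and at 34.1, 31.2, 46.1, 25.5 and 30.6 in the highest, a difference of 0.52 (SE 0.08, adjusted p = 0.00082). Cst3 was at 17.7, 10.2, 26.3, 8.47 and 15.6 in the lowest and 27.6, 14.9, 31.5, 10.9 and 20.3 in the highest, a difference of 0.41 (SE 0.08, adjusted p = 0.0076). Without late sample 1 the Cst3 call was lost (0.36, adjusted p = 0.0531). Lrp2 was higher in 4 of 5 samples, with a difference of 0.21 (SE 0.09, adjusted p = 0.242), Lgmn in 4 of 5 (0.14, adjusted p = 0.463), Ctsz in 3 of 5 (0.10, adjusted p = 0.724) and Ctsh in 2 of 5 (0.041, adjusted p = 0.906). The Tg effect was not found to differ between late and early samples for any member, with interaction differences of −0.19 to 0.20 and adjusted p of at least 0.915.

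**Figure D3:**
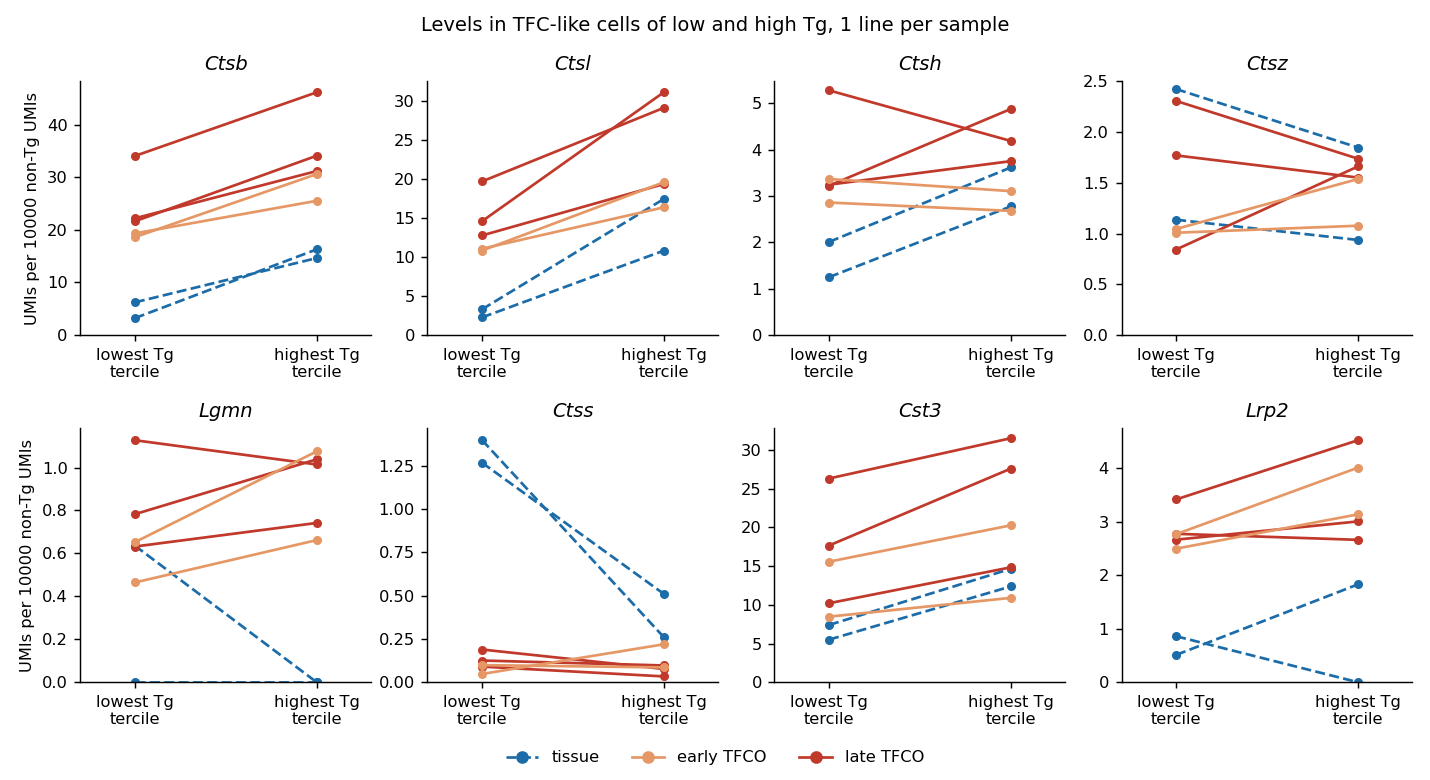
UMIs per 10000 non-Tg UMIs (vertical axis, from 0) of 8 members in the lowest and highest tercile of TFC-like cells by Tg, with 1 line per sample (tissue dashed). All 7 lines rise for Ctsb, Ctsl and Cst3, while those of Ctsz and Lgmn cross.

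In the 2 tissue samples, with 16 and 15 cells a tercile, the values are given without a test. Ctsb was at 6.22 and 3.23 in the lowest tercile and 14.6 and 16.3 in the highest, and Ctsl at 3.30 and 2.27 against 17.5 and 10.8. Cst3 was at 7.40 and 5.50 against 14.7 and 12.4, and Ctss at 1.27 and 1.40 against 0.510 and 0.260. Whole TFCO samples were at 13.7 to 24.6 for Ctsl and 22.8 to 40.0 for Ctsb on this scale, so tissue sample 1 reached their range for Ctsl and neither tissue sample did for Ctsb. Tg in the highest tissue terciles was at 3776 and 3214, against 126 to 301 in the highest tercile of TFCO samples. In the lowest tissue terciles, Tg per cell ran from 26.3 to 1192 and from 105 to 487. An endothelial-like cell of tissue sample 1 reached 588 per 10000 UMIs. Whether the lowest tissue terciles held cells of other types was not tested.

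Cell by cell, the Spearman correlation with Tg in the 5 TFCO samples (234 to 360 cells each) was 0.276 to 0.445 for Ctsl, 0.235 to 0.364 for Ctsb and 0.212 to 0.306 for Cst3. In tissue (49 and 47 cells) it was 0.595 and 0.496 for Ctsl, 0.441 and 0.547 for Ctsb and 0.426 and 0.259 for Cst3. Of these tissue cells, 41 and 29 had more Tg than any cell of the other named classes. Thinned to 1000 UMIs, the TFCO ranges were 0.303 to 0.437, 0.252 to 0.393 and 0.184 to 0.306. The cells of a sample share a plate and both values share a denominator. Without thinning, Lrp2 was at 0.0317 to 0.139 in TFCOs and at 0.213 and −0.29 in tissue samples 1 and 2. Ctsh, Ctsz and Lgmn, also without thinning, had values on both sides of 0 in TFCOs. After thinning, Lrp2 was at 0.0186 to 0.231 in TFCOs and at −0.0694 and −0.139 in tissue samples 1 and 2. Ctsh was then at 0.0293 to 0.151 in TFCOs, while Ctsz and Lgmn stayed on both sides of 0.

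Levels were also described in cells with and without proliferation markers. In TFCO cells with UMIs of at least 2 of 5 proliferation markers, Ctsb, Ctsl, Cst3, Lrp2 and Tg were lower in 5 of 5 samples than in cells with none. Ctsz was lower in 4 of 5, Lgmn and Ctsk in 3 and Ctsh, Ctss and Ctsd in 2. The share of all genes lower in 5 of 5 samples was not computed, so whether these counts are particular to the members cannot be told. The cells with proliferation UMIs were also deeper in every sample, with medians of 7999 to 17880 UMIs against 4259 to 10660. The part of depth in these differences was not tested. The means were 22.2 against 29.8 for Ctsb, 13.8 against 19.4 for Ctsl and 67.8 against 123 for Tg. The highest Tg tercile held fewer cells with a proliferation UMI in all 5 samples (17.8% to 55.8% against 30.7% to 71.8%). In cells with no such UMI, Ctsl was higher in the highest tercile (0.59, adjusted p = 0.0407), whereas Ctsb (0.45, adjusted p = 0.124) and Cst3 (0.36, adjusted p = 0.284) did not pass.

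Among 69 tested genes of the other lists, 4 were higher in the highest Tg tercile and none lower, against 1.51% and 0.959% of all genes, with a median of 0.086 against −0.014. These were Npc2, for a lysosomal cholesterol carrier (16.6 against 10.7, log2 difference 0.58, adjusted p = 0.000349), Ctsa, for a lysosomal carboxypeptidase (0.39, adjusted p = 0.00731), Cpq, for a carboxypeptidase (0.37, adjusted p = 0.0166), and Psap (0.34, adjusted p = 0.0219). Each was higher in 5 of 5 samples. Psap, lower in TFCOs than in tissue, was thus higher in the Tg-rich TFCO cells.

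**Figure D4:**
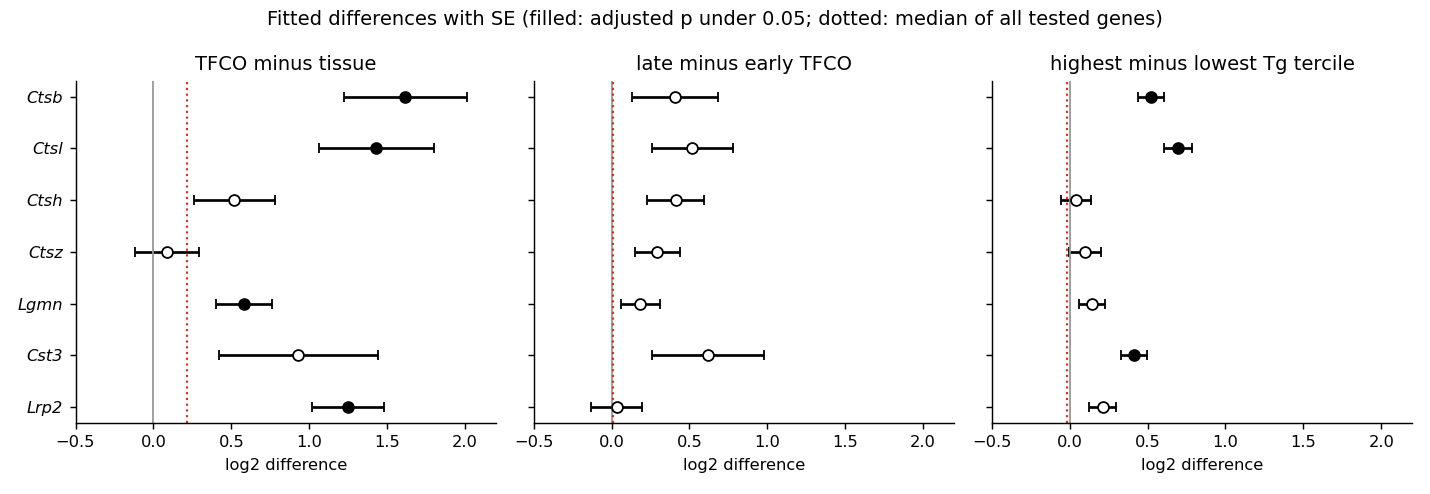
Fitted log2 differences with their SE for the 7 tested members in the 3 comparisons (horizontal axis, log2). Filled points passed an adjusted p of 0.05 and the dotted line is the median of all tested genes, 0.21, 0.0065 and −0.014 from left to right.

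Over 15 profiles (5 tissue classes in 2 samples and 5 TFCO samples), the genes most like each member were found among 4794 genes by Pearson correlation, which follows the large steps between classes and cultures. They were C1qb (0.995) and Trf (0.991) for Ctss, Chpt1 (0.972) and Vegfa (0.957) for Ctsl, Rpl4 (0.973) and Pabpc1 (0.97) for Ctsb and Col4a6 (0.963) and Ss18 (0.958) for Lrp2. For Lgmn they were Pik3ap1 (0.963) and Fam49b (0.954), for Cst3 Asah1 (0.897) and Tmem176b (0.834), for Ctsh Eef1a1 (0.957) and Rpl10-ps3 (0.95) and for Ctsz Gm6394 (0.915). Rpl10-ps3 and other near copies can share reads with their parent genes. Within the members, Ctsl was most like Lrp2 (0.893) and least like Ctss (−0.65), and Ctsb was most like Ctsh (0.897).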

How the data were processed

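Groups followed the passage stage in the labels. The series text speaks of 2 biological replicates per description, whereas 3 samples are labelled late passage, and all 7 were used. The authors deposited 1 table of natural log values, ln of 1 plus UMIs per 10000. The submitters' processing notes name Trim Galore 0.4.3, STAR 2.5.3a and Seurat, and the builds GRCm38 and mm10, while the annotation, cell filter and strand setting were not given in the sources used here. UMIs were recovered by dividing each cell by its smallest value (100% whole within 0.01). The samples held 1406925 to 4703472 UMIs. Spike-in rows were not used here.

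Genes whose level followed the well barcode (correlation over 0.05, 4174 of 19498) were left out of clustering, done in scanpy 1.11.5 (igraph 0.11.9) for tissue and TFCOs apart. Clusters were named by the highest mean log value over marker lists, where 3 or more of its markers were seen in 10% of cells. The score was changed after results were seen, to per-cell log values with Tg among the markers. A further 14 tissue and 15 TFCO cells whose C cell, parathyroid or erythroid markers scored above those of their class were set aside, and no doublet caller was run. Classes may differ from those of the study because names were rebuilt. The second endothelial-like cluster, 84 cells, was led by Gm genes. It had 0 endothelial markers among its 10 leading genes, though 9 were seen in 10% of its cells.

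Means per sample were fitted as log2(level + 1) in R 4.3.3 by limma 3.58.1 with a trended prior and Benjamini-Hochberg adjustment (threshold 0.05), with all 7 samples and weights of 0.462 for tissue and 1.36 for TFCO samples. The pseudocount of 1 understates changes of low genes. The Tg comparison used the 5 TFCO samples, each entered as a term, and left Tg out. The script was tested on simulated data. The members and lists were chosen with earlier results of these data known. All members were named, at most 4 called genes per direction of each other list, and the 2 genes most like each member. Of the genes this rule names, 2 are not reported here. Intervals and limits cover counting error only.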

Additional observations from a re-analysis of the deposited data

How the results depend on the processing

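No paired analysis was possible because the replicate numbers tie no tissue sample to an organoid line. Of the members called in TFCOs against tissue (4), the number was 1 with UMIs summed over cells, where the 2 deepest cells of tissue sample 2 (268847 and 151110 UMIs) dominate, and 4 without those cells. It was 2 with Tg left out of the denominator and 1 in cells of at least 3000 UMIs, where fewer cells enter. Leaving out 1 sample gave 3 to 5, and the calls over all genes were 1204, against 777 (373 higher, 404 lower) after centring on the median gene, 1912 with equal weights, 157 with summed UMIs, 278 at 3000 UMIs, 764 without the filter, 644 after thinning and 1785 or 1868 without tissue sample 1 or 2, where the single tissue sample left takes its spread from the TFCO samples. Tg was no longer called with summed UMIs (adjusted p = 0.0733). Lrp2 kept its call under all 20 alternatives (1.07 to 1.97), Ctsb under 18, Ctsl under 15 and Lgmn under 11. Ctsh (adjusted p = 0.0392) and Cst3 (0.0489) passed with equal weights. Ctsz reversed after centring (−0.092) and without Tg in the denominator (−0.026).

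For late against early no member was called under any of 16 alternatives, though over all genes 347 were called when the likeness term was added and 319 without early sample 1. Lrp2 reversed with summed UMIs (−0.011), at 3000 UMIs (−0.079), after thinning (−0.068), and without late sample 1 or early sample 1 (−0.084 to 0.098 over the samples left out), and Tg without early sample 1 (−0.20 to 0.75). For the Tg terciles (3 members, 116 genes), the number was 1 (12 genes) in cells with no proliferation UMI and 0 (2 genes) with every gene tested, where 30290 genes share the adjustment. It was 2 to 3 with 1 sample left out (70 to 103 genes, fewest without late sample 3, early sample 2 or early sample 1). Over all genes 37 were called after thinning and 245 with summed UMIs. Without late sample 1, Ctsh (−0.068 to 0.12) and Ctsz (−0.0077 to 0.19) reversed. After thinning Cst3 was at 0.30 (adjusted p = 0.231). The number of members highest in immune-like cells was 6 under both alternatives. Under 1 UMI per 10000, Lgmn and Lrp2 in tissue are limited by depth.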
